A study of Homo sapiens with 6 samples.

Results

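The keratins of simple and intestinal epithelium were followed on 6 expression arrays of HT29, a cell line established from a human colorectal adenocarcinoma. The genes were set by name: KRT7, KRT8, KRT15, KRT17, KRT18, KRT19, KRT20, KRT23 and KRT80. Each was read at a probe set, the unit in which this array reports a transcript, that the platform annotation gives to that gene alone, and where several qualified the brightest over all arrays was taken. This gave values for 8 of the 9 genes, among 18417 genes in all, and KRT17 was not analysed here. Arrays labelled laminin α1 (n = 3) came from HT29 cells with an expression construct for that chain of the basement membrane protein laminin, and control arrays (n = 3) from HT29 cells with a control construct. All cells were grown for 7 days, and the replicates of a group are separate culture passages according to the design text. How many cell clones lie behind each group is not given in the sources used here, so p values measure the spread between passages. By its title, the series asks what this chain changes in cultured colorectal cancer cells.

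Keratins are the intermediate filament proteins of epithelial cells. A filament is built from pairs of an acidic type I chain and a basic type II chain, so neither type makes filaments alone. In simple epithelia KRT8 (type II) and KRT18 (type I) form the basic pair, and the intestine adds the type I chains KRT19 and KRT20. KRT20 is largely restricted to differentiated gastrointestinal cells, urothelium and Merkel cells, and with KRT7, which normal colon largely lacks, it is a classical histological marker pair for tumours of colonic origin. KRT20 thus doubles as a keratin and as a differentiation marker.

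The promoter of KRT20 is shown because KRT20 was the keratin of the set that passed the test. The letters are the 250 bases before the transcription start in RefSeq, build GRCh38.p14, chr17:40885243-40885492 on the minus strand, written 5′ to 3′ in the direction of transcription. Capitals mark each match of GATAA, the core bound by GATA factors, and of TTTAT, the core bound by CDX factors, on either strand.
KRT20: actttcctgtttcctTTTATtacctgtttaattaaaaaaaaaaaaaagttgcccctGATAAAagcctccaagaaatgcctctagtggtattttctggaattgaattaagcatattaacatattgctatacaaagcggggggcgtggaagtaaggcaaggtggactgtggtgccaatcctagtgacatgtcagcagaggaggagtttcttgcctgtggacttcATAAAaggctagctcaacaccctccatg
The window held 1 match of GATAA, whose first base lies at -194 from the start, and 3 matches of TTTAT. The reverse-strand TTTAT match at -193 overlaps GATAA, so the capitals there run together, and another lies at -28. GATAA was found in 20.4% of 35116 promoter windows of the same length and TTTAT in 32.7%. The KLF core CACCC had 1 match, at -11, against 54.7% of windows with any. The TATA core TATAAA (10.7% of windows), the grainyhead-like motif AACCNGTT (1.49%) and the AP-1 motif TGANTCA (6.57%) had no match on either strand. The letters ATAAA marked at -28 also form the end of TATAAA, and looser TATA-like matches were not searched. All these matches describe letters only. RefSeq entries were at hand for 2 of the 9 keratins, KRT20 and KRT8.

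The values are log2 expression values as deposited, so a difference of 1 is a doubling, and each array's median lay between 6.45 and 6.49. Differences are laminin α1 minus control from limma, fitted over the 13812 genes whose mean lay above log2 5.50, the 25th percentile of all genes. A gene passed at a Benjamini-Hochberg adjusted p under 0.05, and all 8 keratins were among the genes tested. LAMA1, the gene of the introduced chain, had values of 5.79, 5.72 and 5.71 in laminin α1 arrays and 5.71, 5.63 and 5.60 in control arrays, a difference of 0.09 (SE 0.06, limma adjusted p = 0.535). Its probes are not known to match the construct, so it does not check the labels. Across genes, which are not independent replicates, arrays correlated at 0.9911 to 0.9975 within a group and at 0.983 to 0.9915 between groups, ranges that overlap slightly. Values of different probe sets are on scales of their own and no keratin is ranked against another by level.

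Among the 8 keratins, 0 rose and 1, KRT20, fell. Over all genes tested 5.29% passed, 2.69% higher and 2.59% lower, so a count of 1 among 8 does not set these keratins apart as a group. The median difference of the 8 keratins was 0.06, against -0.01 for all genes tested, with 5 keratins above 0 and 3 below. The groups did not overlap for KRT20, which was lower, and for KRT80, which was higher in laminin α1 arrays. Such separation was seen for 21.6% of all genes tested, 10.1% higher and 11.5% lower.

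KRT20 fell in the arrays labelled laminin α1. Its values were 10.82, 10.73 and 10.75 in laminin α1 arrays and 11.08, 11.13 and 11.14 in control arrays. Every laminin α1 array lay below every control array, and the spread within either group was small. The means were 10.77 ± 0.05 in laminin α1 arrays and 11.12 ± 0.03 in control arrays (SD, n = 3 each). The difference was -0.35 (SE 0.06, 95% interval -0.49 to -0.21), or 1.28-fold lower, with a limma adjusted p of 0.00863. Over the alternatives tried the difference lay between -0.39 and -0.33, but the call was lost without either array numbered 2. The adjusted p was 0.0628 with control replicate 2 left out and 0.0599 with laminin α1 replicate 2 left out, in a range of 1.50e-05 to 0.0628 over all alternatives. In bulk RNA, fewer cells with KRT20 and less KRT20 RNA per cell cannot be told apart.

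KRT8 and KRT18, the main keratin pair of simple epithelia, did not pass. KRT8 had 13.00, 12.95 and 12.91 in laminin α1 arrays and 12.99, 12.93 and 12.78 in control arrays. The groups overlapped almost wholly, with a difference of 0.05 (95% interval -0.11 to 0.21, limma adjusted p = 0.802). KRT18 had 12.88, 12.86 and 12.80 in laminin α1 arrays and 12.80, 12.71 and 12.81 in control arrays. Its difference was 0.07 (95% interval -0.07 to 0.22, limma adjusted p = 0.642), and the lowest laminin α1 array lay below the highest control array. Intervals of this width leave room for small changes of either gene, and the direction for KRT8 turned to -0.0099 without control replicate 3.

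Both genes have many processed copies in the genome, and RNA or probes of these copies can blur their signal. The annotation gave KRT18 alone 2 probe sets. The dimmer had 12.52, 12.48 and 12.62 in laminin α1 arrays and 12.68, 12.49 and 12.51 in control arrays, a difference of -0.02 opposite in sign to the brighter. A probe set shared between KRT18 and the microRNA gene MIR622 differed by 0.03. In a fit over all probe sets none of these passed (limma adjusted p = 0.960 for the dimmer and 0.918 for the shared probe set), so the sign for KRT18 is not settled by these data.

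KRT19, a small type I keratin that lacks most of the tail domain and is found in ductal and intestinal epithelium, did not pass either. It had 11.28, 11.17 and 11.05 in laminin α1 arrays and 11.35, 11.14 and 11.22 in control arrays. The groups overlapped, with a difference of -0.07 (95% interval -0.25 to 0.12, limma adjusted p = 0.761). Its interval overlapped that of KRT20.

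**Figure D1:**
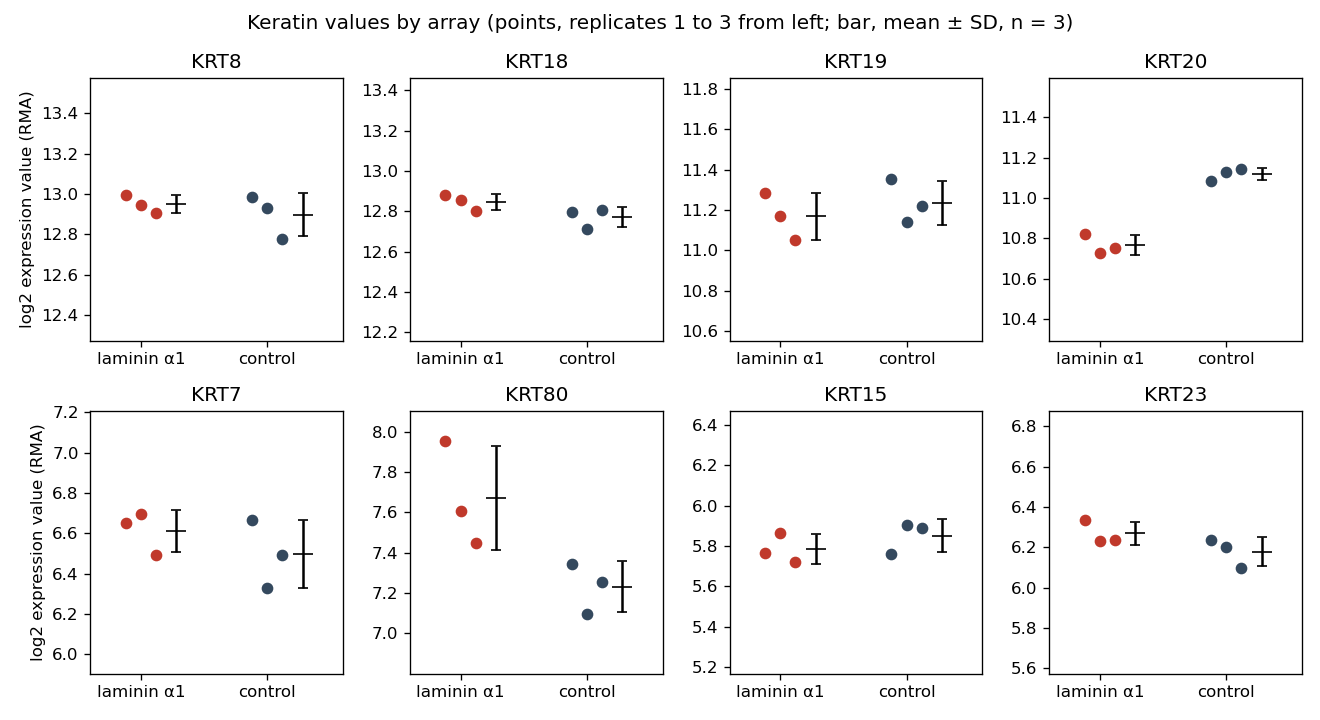
Log2 expression value of 8 keratins in each array, laminin α1 left and control right, with points for arrays and bars for mean ± SD (n = 3), each panel spanning the same log2 range around its own centre. KRT20 lies at 10.77 ± 0.05 in laminin α1 arrays and 11.12 ± 0.03 in control arrays with no overlap, KRT80 is higher without overlap but with wide scatter, and the other 6 overlap.

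Since filaments pair the chain types, each type I chain was also set against KRT8 within the same array, a difference that does not move when an array is rescaled. Its size compares different probes and was not read, only its change between groups. KRT20 minus KRT8 was -2.17, -2.22 and -2.15 in laminin α1 arrays and -1.90, -1.80 and -1.63 in control arrays. All laminin α1 arrays lay below all control arrays, a change of -0.40, with a two-sided exact permutation p of 0.1 (0.3 adjusted over the 3 differences tested), and 0.1 is the smallest p that 3 against 3 arrays allow. This difference uses the same KRT20 values as the test above, so it is not independent of that result. KRT19 minus KRT8 changed by -0.12 (exact permutation p = 0.3, adjusted 0.45) with overlapping groups. KRT18 minus KRT8 changed by 0.02 (exact permutation p = 1, adjusted 1), with -0.10 ± 0.01 in laminin α1 arrays and -0.13 ± 0.13 in control arrays (SD, n = 3 each). Its sign turned without control replicate 1 (-0.01), without control replicate 2 (-0.02) and with the mean of the KRT18 probe sets (-0.02).

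**Figure D2:**
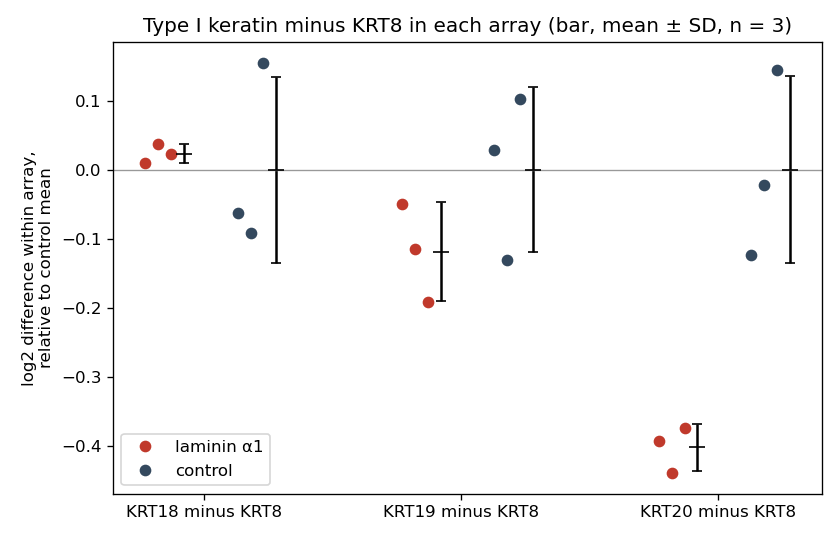
Log2 difference of KRT18, KRT19 and KRT20 from KRT8 within each array, relative to the control mean of that difference, laminin α1 left of control, with bars for mean ± SD (n = 3). The 3 laminin α1 arrays lie below all control arrays for KRT20 minus KRT8, a change of -0.40, while the groups overlap for KRT19 minus KRT8 and KRT18 minus KRT8.

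KRT80, a type II keratin found in many epithelia and located at cell margins near junctions, had the largest difference of the 8 keratins and did not pass. Its values were 7.95, 7.61 and 7.45 in laminin α1 arrays and 7.34, 7.10 and 7.25 in control arrays. The laminin α1 arrays were all higher, but they spread widely, 7.67 ± 0.26 against 7.23 ± 0.13 in control arrays (SD, n = 3 each). The difference was 0.44 (SE 0.12, 95% interval 0.17 to 0.71, limma adjusted p = 0.0742). Without laminin α1 replicate 3 it passed, with a difference of 0.55 and an adjusted p of 0.0137. In that setting 1214 of all genes passed, against 730 with all arrays. KRT80 did not pass with any other single array left out. Over all alternatives its adjusted p ranged from 0.000141, with array weights that called 4691 genes, to 0.269.

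KRT7, a type II keratin of ductal and glandular epithelia, had 6.65, 6.69 and 6.49 in laminin α1 arrays and 6.67, 6.33 and 6.49 in control arrays. The groups overlapped and the difference of 0.12 (95% interval -0.09 to 0.33) did not pass (limma adjusted p = 0.620). KRT23, a type I keratin, had 6.34, 6.23 and 6.24 in laminin α1 arrays and 6.24, 6.20 and 6.10 in control arrays. The lowest laminin α1 array lay just below the highest control array, with a difference of 0.09 (95% interval -0.06 to 0.24, limma adjusted p = 0.575). KRT15, a type I keratin of basal cells in stratified epithelia, had 5.76, 5.87 and 5.72 in laminin α1 arrays and 5.76, 5.90 and 5.89 in control arrays. Its difference was -0.07 (95% interval -0.23 to 0.09, limma adjusted p = 0.718), and its level lay near the filter of 5.50, where signal is low and a change may be understated.

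The remaining keratin genes were read from the same fit. Of 22 other type I keratins, 22 had a probe set and 12 were tested, with 1 higher and 0 lower, against 2.69% of all genes tested higher and 2.59% lower. Of 23 other type II keratins, 17 had a probe set and 14 were tested, with 0 past the threshold. Their median differences were -0.0020 and 0.01, against -0.01 for all genes tested.

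The type I keratin that rose was KRT13, which pairs with KRT4 in the suprabasal layers of mucosal stratified epithelia such as the oesophagus. KRT13 had 8.997, 8.84 and 8.81 in laminin α1 arrays and 8.20, 8.01 and 7.91 in control arrays. The groups lay well apart, with a difference of 0.85 (SE 0.09, 95% interval 0.65 to 1.04) or 1.80-fold, and a limma adjusted p of 0.000298. The call held whichever array was left out (adjusted p 0.000325 to 0.00243). KRT4 had a difference of 0.02 (95% interval -0.15 to 0.19, limma adjusted p = 0.943), and its sign turned when any of 4 arrays was left out. Its means, 6.40 in laminin α1 arrays and 6.39 in control arrays, lay below the medians of the arrays, so a change may be understated.

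KRT16, a type I keratin of stressed epidermis, had a difference of -0.20 (limma adjusted p = 0.327), and KRT40, a hair keratin, -0.16 (limma adjusted p = 0.295). KRT78, a type II keratin of stratified epithelia, had 0.13 (limma adjusted p = 0.315). None of these 3 passed. Their groups did not overlap, with KRT16 and KRT40 lower and KRT78 higher in laminin α1 arrays. Such separation was seen for 21.6% of all genes tested. KRT40, with means of 5.60 in laminin α1 arrays and 5.76 in control arrays, lay near the filter of 5.50. KRT78, with 6.20 and 6.07, lay below the medians of the arrays. Of 4 squamous epithelial markers tested 0 passed, where 5.29% of all genes tested did. The mean level of the 5 measured was 6.08 to 6.22 in laminin α1 arrays and 6.14 to 6.16 in control arrays.

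**Figure D3:**
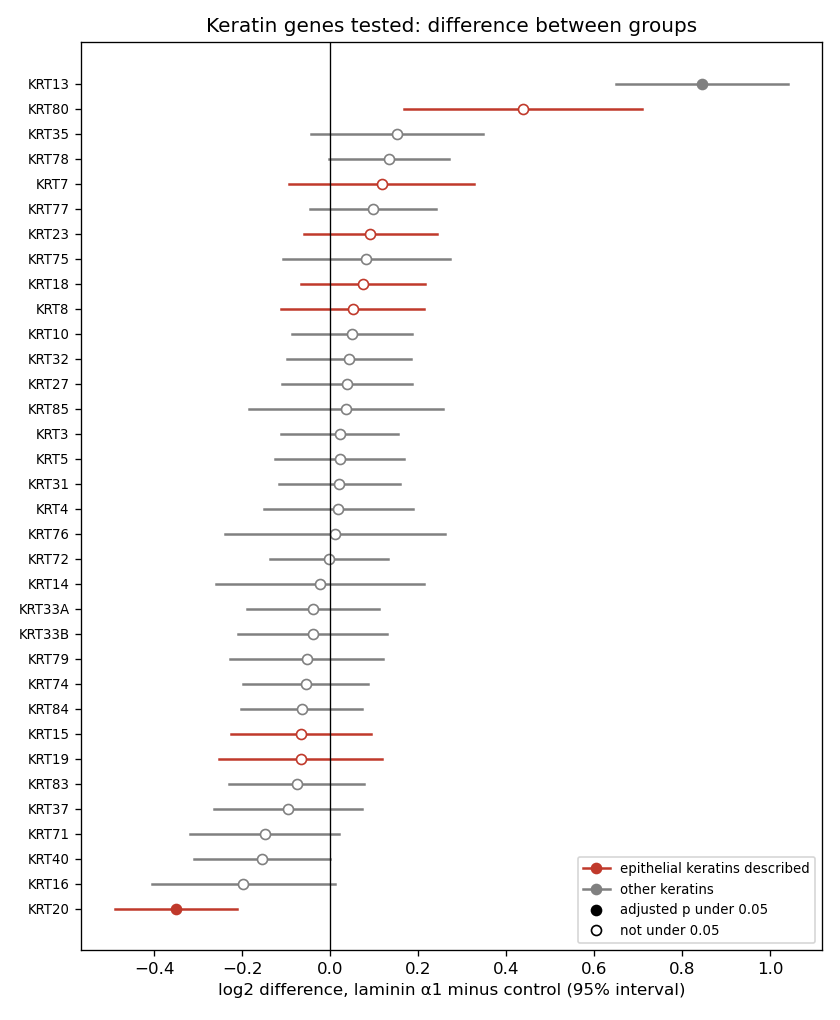
Log2 difference, laminin α1 minus control, with its 95% interval for every keratin gene tested, the 8 keratins described in red and the others in grey, filled where the adjusted p was under 0.05. KRT13 at 0.85 and KRT20 at -0.35 are filled, while KRT80 at 0.44 has an interval above 0 and is open.

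Nearly all keratin genes sit in 2 clusters, type II with KRT18 on chromosome 12 and the other type I genes on chromosome 17. Of the 8 keratins described, 4 lie on each. On chromosome 12, 18 keratin genes were tested and 0 passed, with a median difference of 0.02. On chromosome 17, 16 were tested, 1 rose (KRT13) and 1 fell (KRT20), with a median of -0.03. Over all genes tested 5.29% passed, 2.69% higher and 2.59% lower, so these counts do not set either cluster apart.

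The nearest neighbours of KRT20, KRT13 and KRT80 did not pass. Beside KRT20 the nearest tested genes in RefSeq order were KRT10, with a difference of 0.05 (limma adjusted p = 0.766), and KRT23. Beside KRT13 they were KRT35, with 0.15 (limma adjusted p = 0.445), and KRT15, and beside KRT80 they were ATG101, with 0.03 (limma adjusted p = 0.913), and KRT7. KRT10 had means of 5.53 in laminin α1 arrays and 5.48 in control arrays, and KRT35 5.90 and 5.75. Like KRT15, both lay near the filter of 5.50, where a change may be understated. KRT23 lay below the median of every array.

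Desmosomes and hemidesmosomes anchor keratin filaments to the cell surface through linker proteins. Of 17 such genes 14 were tested, with 0 higher and 1 lower, and a median difference of -0.04, where 2.59% of all genes tested were lower. PKP2, plakophilin 2 of the desmosomal plaque, had 9.96, 9.99 and 9.98 in laminin α1 arrays and 10.39, 10.48 and 10.42 in control arrays. PKP2 fell, with no overlap and a difference of -0.45 (SE 0.06, limma adjusted p = 0.00168), and stayed past the threshold whichever array was left out (adjusted p 0.00350 to 0.0181).

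DSP, desmoplakin, which ties keratin filaments to the plaque, had 8.56, 8.65 and 8.77 in laminin α1 arrays and 9.06, 8.86 and 8.92 in control arrays. The laminin α1 arrays were all lower, but the difference of -0.29 (SE 0.08) did not pass (limma adjusted p = 0.0771). DSG2, the desmosomal cadherin of simple epithelia, had -0.30 (SE 0.13, limma adjusted p = 0.267) with overlapping groups. Without laminin α1 replicate 3, a setting in which 1214 of all genes passed against 730 with all arrays, both passed. DSP then had an adjusted p of 0.0306 and DSG2 0.0159, and with any other single array left out neither passed. Over all alternatives DSP ranged from 0.00450 to 0.249 and DSG2 from 0.00271 to 0.591. Both lowest values came from array weights, which called 4691 genes.

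Among 20 chaperones, 14-3-3 proteins, kinases, caspases and other proteins that bind or modify keratins, 15 were tested, 1 rose and 0 fell, with a median of 0.02, where 2.69% of all genes tested rose. TGM2, transglutaminase 2, an enzyme that crosslinks proteins and can act on keratins, rose, with 11.30, 11.19 and 11.14 in laminin α1 arrays and 10.37, 10.19 and 10.15 in control arrays. The difference was 0.97 (SE 0.08) or 1.96-fold, with a limma adjusted p of 5.92e-05, and it passed whichever array was left out. SFN, the epithelial 14-3-3 sigma protein, had a difference of 0.11 (limma adjusted p = 0.538), and PRKCD, a protein kinase C, 0.12 (limma adjusted p = 0.621).

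Of 20 transcription factors linked to epithelial keratin genes 17 were tested, with 1 higher and 1 lower and a median of -0.0031. Over all genes tested 2.69% were higher and 2.59% lower, and a count of 1 each way does not set this list apart. GRHL3, a grainyhead-like factor of surface epithelia, rose, with 7.33, 7.22 and 7.17 in laminin α1 arrays and 6.71, 6.56 and 6.59 in control arrays. Its difference was 0.62 (SE 0.07, limma adjusted p = 0.000673), past the threshold whichever array was left out. GATA6, a GATA factor of gut epithelium, fell by 0.30 (SE 0.07, limma adjusted p = 0.0379), with 9.78, 9.81 and 9.67 in laminin α1 arrays and 10.14, 9.99 and 10.02 in control arrays. The GATA6 groups did not overlap, but its call did not survive the loss of any of the 6 arrays (adjusted p 0.0599 to 0.137) or a test of all probe sets (adjusted p = 0.1003).

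CDX2, the caudal-type factor of intestinal identity, had 7.20, 7.21 and 7.21 in laminin α1 arrays and 7.24, 7.17 and 7.13 in control arrays, a difference of 0.03 (95% interval -0.11 to 0.16, limma adjusted p = 0.886). FOS and JUN, subunits of AP-1, had differences of -0.35 (limma adjusted p = 0.169) and 0.25 (limma adjusted p = 0.325), and neither passed. Over the alternatives FOS lay between -0.47 and -0.23, with adjusted p values of 0.000833 to 0.440. JUN lay between 0.13, without laminin α1 replicate 1, and 0.36, with adjusted p values of 0.0141 to 0.675.

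Other intermediate filament genes had 8 of 13 tested and 0 past the threshold, with a median of 0.05. As 5.29% of all genes tested passed, a count of 0 among 8 does not set this list apart. The groups did not overlap for 2 genes that were higher and 1 that was lower, against 10.1% and 11.5% of all genes tested. LMNA, the nuclear lamin A and C gene, had a difference of 0.17 (95% interval -0.01 to 0.34, limma adjusted p = 0.317), and GFAP, an astrocyte filament gene, 0.20 (limma adjusted p = 0.151). VIM, the mesenchymal filament gene vimentin, was among the 5 genes below the level filter.

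**Figure D4:**
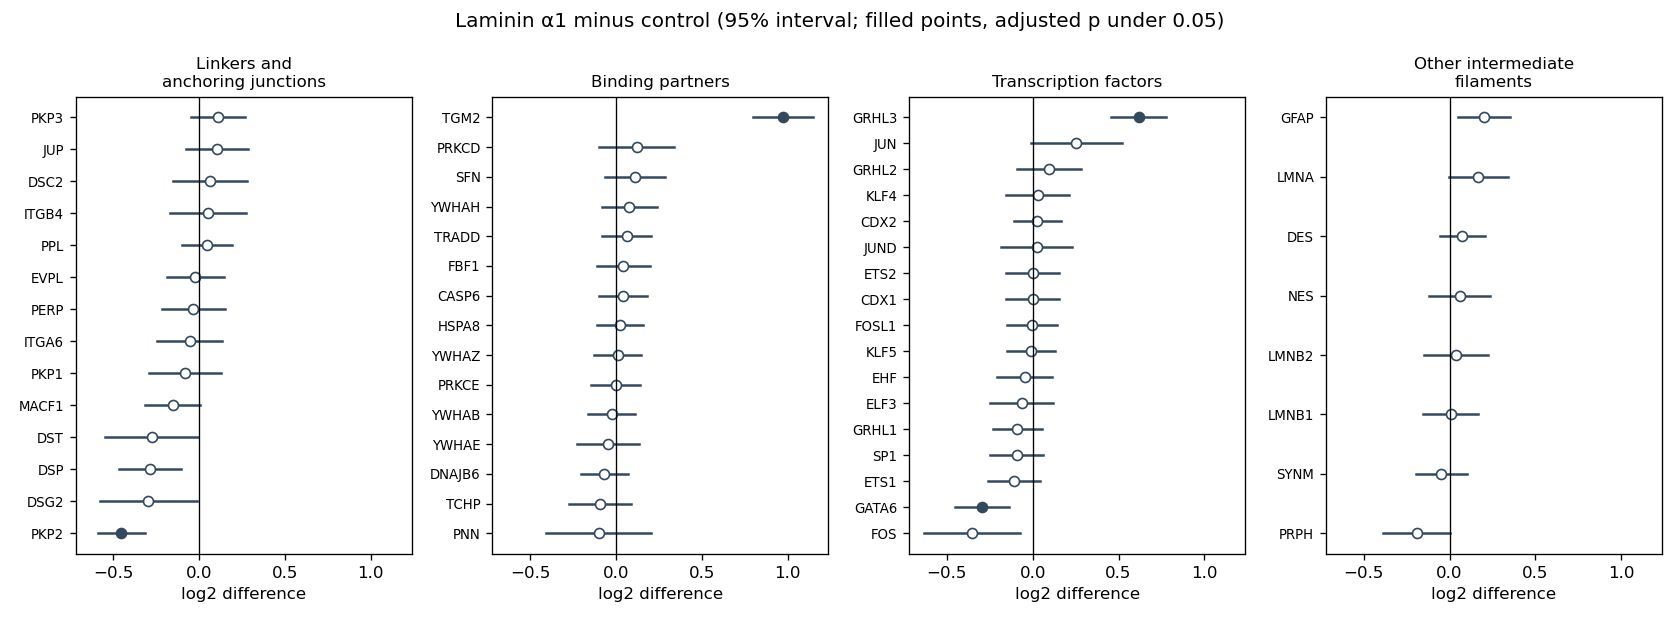
Log2 difference, laminin α1 minus control, with its 95% interval for tested linker, binding partner, transcription factor and other intermediate filament genes, filled where the adjusted p was under 0.05. PKP2 (-0.45) and GATA6 (-0.30) lie to the left and TGM2 (0.97) and GRHL3 (0.62) to the right, and all other points are open.

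Markers of colon epithelium were read from the same fit, and 6 of 6 lay above the level filter by their mean over all arrays. CDH17 lay above it only in the control arrays, so the count does not hold for laminin α1 arrays alone. The mean level of the 6 markers was 9.475 to 9.478 in laminin α1 arrays and 9.761 to 9.881 in control arrays. Of the 6, 2 fell (2.59% of all genes tested fell), 4 did not pass, and 2 of the differences were above 0. The gap in mean level rested mostly on CDH17, and the other 5 averaged 10.37 to 10.41 in laminin α1 arrays and 10.39 to 10.55 in control arrays, which overlap. CDH17, the cadherin of intestinal epithelium, fell by 1.65 on the log2 scale to 4.93 ± 0.12 in laminin α1 arrays, against 6.58 ± 0.05 in control arrays (SD, n = 3 each, limma adjusted p = 1.59e-06), and the first of these means lies below the level filter, so the size is uncertain. LGALS4, an intestinal galectin, fell by 0.31 (limma adjusted p = 0.0239), a call lost without control replicate 1, control replicate 2 or laminin α1 replicate 2 (adjusted p up to 0.101) and with all probe sets tested (adjusted p = 0.0669).

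EPCAM, the epithelial cell adhesion molecule, had -0.12 (limma adjusted p = 0.434), CDH1, E-cadherin, 0.04 (limma adjusted p = 0.855), and VIL1, villin of the brush border, -0.03 (limma adjusted p = 0.913). The EPCAM groups did not overlap, though narrowly, with the highest laminin α1 array at 12.045 and the lowest control array at 12.049. Of the 6 colon markers 3 lay wholly lower in laminin α1 arrays and 3 overlapped, where 11.5% of all genes tested lay wholly lower. The signs for CDH1 and VIL1 turned when single arrays were left out. The part of these markers in the KRT20 difference was not tested. Fibroblast markers had 0 of 4 tested past the threshold, where 5.29% of all genes tested passed. The mean level of the 6 measured, with those below the filter, was 5.57 to 5.64 in laminin α1 arrays and 5.56 to 5.65 in control arrays. Endothelial and blood cell markers had 0 of 2 tested past the threshold, and with so few genes neither count sets its list apart. The mean level of the 6 measured was 5.51 to 5.52 in laminin α1 arrays and 5.50 to 5.54 in control arrays.

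The genes whose pattern over the 6 arrays was most like that of KRT20 were found by the root mean square difference of log2 values, each centred on its own mean. They were ARRDC4, an arrestin-domain protein, at 0.0267, TBCEL, a tubulin-folding cofactor-like protein, at 0.0316, and TSPAN5, a tetraspanin, at 0.0328. ARRDC4 had 7.04, 7.02 and 7.02 in laminin α1 arrays and 7.33, 7.40 and 7.37 in control arrays. TBCEL and TSPAN5 differed by -0.30 and -0.40. Among the other keratins the distance from KRT20 was between 0.16, for KRT15, and 0.42, for KRT80.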

How the data were processed

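Total RNA of 6 HT29 cultures was hybridised to Affymetrix arrays. For every probe set the authors deposited a log2 value. The submitters' processing notes name RMA and Affymetrix Expression Console 1.1. As RMA corrects background and quantile-normalizes arrays, a shift of all genes together cannot be seen. No genome build is named in the sources used here. The labels name the dye Cy3, and the values were treated as 1 channel.

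Of 33297 probe sets, the platform annotation gave 19460 exactly 1 symbol, 1754 several and 12083 no entry. The brightest probe set stood for a gene. Differences came from limma 3.58.1 (lmFit, eBayes; R 4.3.3), with no covariates, over 13812 genes above the 25th percentile of gene means, with Benjamini-Hochberg adjustment over all of them. Precision is limited by the number of arrays, with a median standard error of 0.0754 per difference. The fit was tested on simulated data.

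The keratins, lists and tests were chosen with earlier results of these data known. Named genes were all keratins of the set, list members past the threshold with 1 or 2 others, the colon markers and the 3 genes most like KRT20. KRT4, LMNA and the neighbours in gene order were added after their values were seen. Marker levels are means of log2 values. Motifs were searched on both strands of RefSeq promoters (GRCh38.p14). Gene order came from RefSeq of the same assembly. Alternatives were no filter or the 50th percentile, probe set means, all probe sets, median centring, repeated quantile normalization, trended and robust eBayes, array weights, a replicate block, and each array left out.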

Additional observations from a re-analysis of the deposited data

How the results depend on the processing

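The 3 arrays per group limit the precision, and signal over background is not given. Of 117 values of the 8 keratins under alternatives, 108 kept direction and side of the threshold, 2 lost the call, 5 gained it and 2 turned sign. For 31 other named genes the counts were 412, 17, 17 and 8 of 454. Array weights, whose estimation stopped before convergence and gave control replicate 2 a weight of 10.7, called 4691 genes in all, 4 of the 8 keratins (3 higher), 7 other keratins and 19 linkers, partners and regulators. KRT19 turned to 0.0165 there. With the replicate number as a block the counts were 1596 genes, 2 keratins (KRT80 added, adjusted p = 0.0126), 1 other keratin and 9 linkers, partners and regulators. Deviations of same-numbered arrays correlated at 0.39, 0.02 and 0.53 across genes, and laminin α1 replicates 1 and 3 correlated best with the control of their own number and replicate 2 with control replicate 1. Not every pair reached 0.1, and no label gives a pairing, so the block was kept as an alternative. FOS and JUN also passed with the block (adjusted p = 0.00510 and 0.0292) and with array weights (adjusted p = 0.000833 and 0.0141). Leaving out 1 array gave from 407 genes, for control replicate 2, to 1214, for laminin α1 replicate 3, and 429 for laminin α1 replicate 2. It gave 0 to 2 of the 8 keratins, 3 to 6 linkers, partners and regulators, and 1 other keratin each time. KRT20 minus KRT8 then changed by -0.46 to -0.33, KRT19 minus KRT8 by -0.18 to -0.067 and KRT18 minus KRT8 by -0.0227 to 0.101. With the mean of the KRT18 probe sets the last was -0.0229. Differences whose sign turned when an array was left out ranged from -0.0099 to 0.0949 for KRT8, -6.83e-05 to 0.0764 for CDH1, -0.0964 to 0.05003 for VIL1, -0.0247 to 0.0799 for KRT4 and -0.0482 to 0.124 for ATG101. The causes were not tested.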
